A study of Sus scrofa with 4 samples.

Results

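Fibroblasts of pig pancreas were described here from droplet-based single-cell RNA sequencing, in which each unique molecular identifier (UMI) stands for 1 captured RNA molecule. They were found as barcodes of the primary pancreas libraries that had at least 2000 UMIs and at most 9000 genes, that held less than 0.3% of UMIs of the ductal gene SLC4A4 and less than 5% of INS, and that carried at least 10 UMIs of DCN, LUM and APOD in sum and more of these than of the 5 mural genes MYH11, RGS5, ACTA2, TAGLN and CNN1. Of 32580 barcodes in all 4 libraries, 280 were fibroblasts. Of the 5677 barcodes of primary pancreas 1 that passed the depth limits, 272 were fibroblasts (4.79%, exact Clopper-Pearson 95% interval 4.25 to 5.38). In primary pancreas 2 they were 8 of 5643 (0.142%, 0.0612 to 0.279). Intervals here cover counting error alone.

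The study set porcine pancreatic ductal organoids (PPDO) beside the organ they come from. Primary pancreas 1 and 2 came from 2 pigs of the same postnatal age, a wild type and a carrier of an INS-eGFP transgene that drives a fluorescent protein from the insulin promoter, and were processed on different days. By the study's methods, pancreata were freed of excess fat and connective tissue before digestion with collagenase V and TrypLE, so that these cells are the fibroblasts which that cleaning left. In the first pancreas ductal fragments were picked by hand and live cells were sorted, and in the second cells bound by the lectin DBA, INS-eGFP cells and whole suspension were sorted and pooled, on the assumption that the replicate numbers of the labels are the sample numbers of the methods. In barcodes at or above the INS limit, eGFP had 21 UMIs in primary pancreas 2 and 0 in primary pancreas 1. PPDO 1 and 2 were epithelial cultures in a gel with a medium holding WNT3A, R-spondin and noggin. Animal, day and preparation cannot be told apart, and each primary library was 1 sample, so no test between the 2 was possible and all values below are descriptions.

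Fibroblasts are the connective tissue cells that make and remodel the extracellular matrix. They secrete fibrillar collagens, the small leucine-rich proteoglycans that space collagen fibrils, and the elastin and fibrillin of elastic fibres, and they release growth factors and their inhibitors to neighbouring epithelium, vessels and nerves. In the pancreas they lie around ducts, vessels, nerves and lobules, and in pancreatitis and pancreatic cancer they form the dense stroma for which these diseases are known.

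The rule rested on DCN (decorin) and LUM (lumican), both proteoglycans of collagen fibrils, and APOD, a carrier of small lipids. In the Sscrofa11.1 annotation of RefSeq, DCN lies at chr5:91678601-91713925 and LUM at chr5:91748871-91756381, followed by their family members KERA and EPYC at chr5:91794317-91802362 and chr5:91837672-91877779. APOD lies at chr13:132514546-132562594. The other marker genes were THBS4 (thrombospondin 4, an adhesive matrix protein, chr2:88729531-88780759), SVEP1 (a large matrix protein that binds integrins, chr1:251367401-251571799) and EBF2 (a transcription factor of mesenchymal cells, chr14:9816992-10027574).

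In the 272 fibroblasts of primary pancreas 1, a cell had from 10 to 923 UMIs of the 3 rule genes, with a median of 71. DCN ranged from 0 to 373 UMIs per cell with a median of 46 and was found in 268 cells. LUM ranged from 0 to 189 with a median of 16 and was found in 263 cells. APOD was uneven, with 123 cells at 0, a median of 2 and a highest cell of 410. DCN was the highest of the 3 genes in 212 cells, APOD in 49 and LUM in 11. The 8 cells of primary pancreas 2 held 33 to 211 UMIs of DCN (median 72.5), 7 to 32 of LUM (median 21) and 0 to 22 of APOD (median 1).

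Few barcodes lay near the limits of the rule. In primary pancreas 1, 9 fibroblasts had 10 to 14 and 12 had 15 to 19 UMIs of the rule genes, and 17 barcodes just outside had 5 to 9. Another 10 barcodes had at least 10 such UMIs but no more than of the mural genes, and 16 passed on the rule genes but had too much SLC4A4. In primary pancreas 2, 2 barcodes with 5 to 9 UMIs lay just outside, and 2 others were kept out by the mural genes. The plot of rule genes against mural genes shows how far most fibroblasts lay from both limits.

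**Figure D1:**
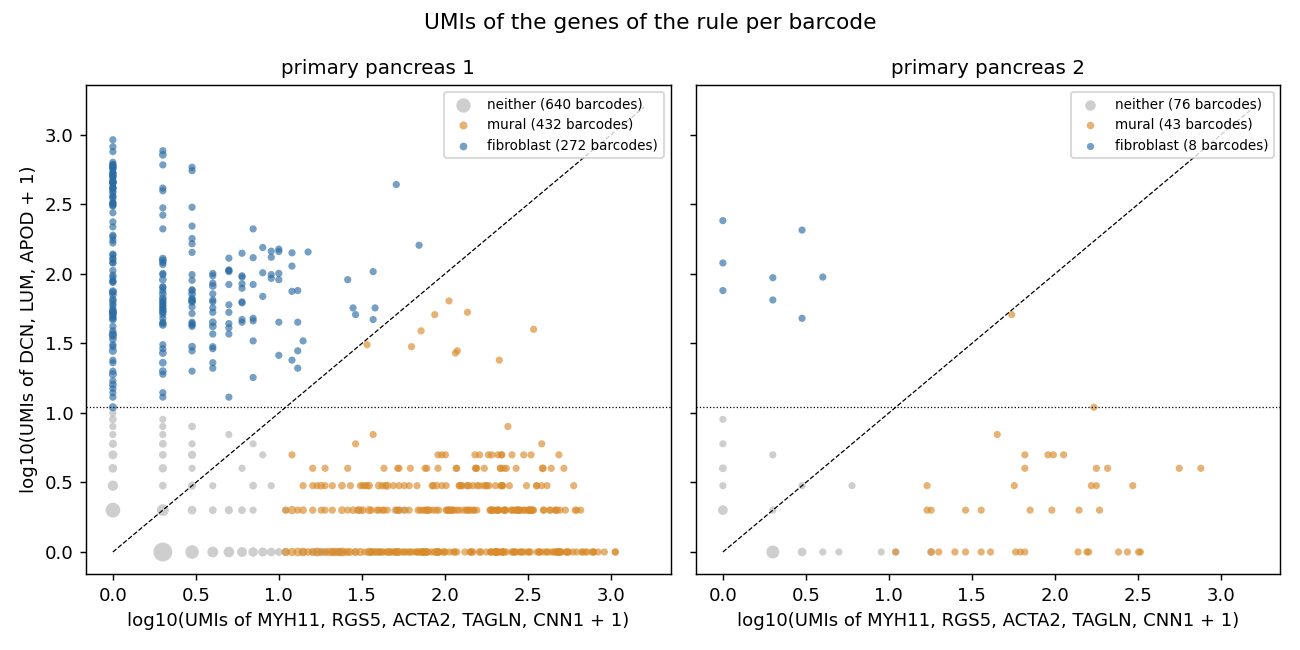
Each point stands for the barcodes of primary pancreas 1 (left) or 2 (right), below the SLC4A4 and INS limits and with at least 1 UMI of either gene set, that share a number of mural gene UMIs (x, log10 of UMIs + 1) and of rule gene UMIs (y, same scale), and larger points stand for more barcodes. The dotted line marks 10 UMIs of the rule genes and the dashed line equal numbers of both sets, and the 272 and 8 fibroblasts lie on or above the first and above the second.

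Fibroblasts of primary pancreas 1 had a median of 9378 UMIs (3024 to 46215) and 3322 genes, and 0.175% mitochondrial UMIs, and those of primary pancreas 2 a median of 9424.5 UMIs (4892 to 13549). Levels are given below as CPM, UMIs of a gene per 1000000 UMIs, from the UMIs of all cells of a class together. They are not set side by side between genes, since no length was taken into account. Classes were set by 10 or more UMIs of small marker sets, and the class used for comparison was mural cells, the smooth muscle cells and pericytes of vessel walls (432 cells in primary pancreas 1 and 43 in primary pancreas 2). A barcode was mural only with at least as many mural UMIs as of each endothelial, Schwann, lymphocyte or myeloid set. Fibroblasts were kept whatever they held of those sets. SLC4A4-high and INS-high cells were the barcodes at or above the 0.3% and 5% limits of the rule. DCN stood at 7091 CPM in fibroblasts and 59.9 CPM in mural cells of primary pancreas 1, and at 10011 and 82.4 CPM in primary pancreas 2. LUM stood at 2379 and 37.4 CPM in the first animal and 2158 and 79.8 CPM in the second. For APOD these were 4671 and 93.0 CPM, and 415 and 134 CPM. All of these differences follow from the rule.

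The rule also bounds the molecules of its genes in other classes. Per 10000 UMIs there were 141 in fibroblasts, 1.90 in mural cells, 0.689 in Schwann cells, 0.362 in SLC4A4-high cells, 0.140 in myeloid cells, 0.0523 in lymphocytes and 0.0507 in endothelial cells. Of lymphocytes, which should lack these genes, 4.07% held at least 1 such UMI, at a median depth of 6670 UMIs per cell against 9378 in fibroblasts. INS, the insulin gene of beta cells, made 0.0143% of fibroblast UMIs in primary pancreas 1 and 1.01% in primary pancreas 2. Without INS and acinar genes in the totals, the counts of genes higher and lower than in mural cells (below) were again 909 and 714. These counts are from primary pancreas 1, where INS and the acinar list made 0.0143% and 0.0462% of fibroblast UMIs. In its mural cells they made 0.0156% and 0.0441%. Shares so small could hardly move a ratio, so the part of free RNA was not tested by this.

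Marker sets of other cells were counted in fibroblasts of primary pancreas 1. The endothelial set summed to 153 CPM against 4509 CPM in endothelial cells, the Schwann set to 133 against 7769, the lymphocyte set to 30.6 against 2744, the myeloid set to 101 against 4327 and the mural set to 289 against 17590. All genes of these sets were seen at least once. At least 10 UMIs were found of the endothelial set in 4 fibroblasts, of the Schwann set in 5, of the lymphocyte set in 2, of the myeloid set in 4 and of the mural set in 18, where doublets were not removed. The fibroblasts that remain when the cells marked by these 5 sets are left out numbered 244. Cells marked by further lists stayed in, 158 with at least 10 UMIs of the ductal list, 30 of the mesothelial and 13 of the acinar list. The ductal list summed to 1506 CPM in fibroblasts, against 705 CPM in mural and 32828 CPM in SLC4A4-high cells. Its gene BICC1 made 941 CPM of this and was seen in 96.7% of fibroblasts, and KRT8 made 262 CPM. Of the Schwann list 4 of 8 genes compared were at least 4-fold above mural cells, and CDH19, one of these, was found in 2.21% of fibroblasts. With fibroblasts marked by the 5 sets left out, 3 of 235 genes changed sides. Among them CDH19 and the lymphocyte chemokine CCL5 went from above to below mural cells, with log2 ratios of -2.53 and -2.79. CDH19 is itself in the Schwann set of that filter, and mural cells were not filtered, so its change follows from the filter.

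Fibroblasts and mural cells of primary pancreas 1 were compared over the 13358 genes with at least 20 UMIs in both classes together. A gene was counted as higher or lower at a CPM ratio of at least 4. That held for 909 genes higher in fibroblasts (6.80% of genes compared) and 714 genes lower (5.35%), and the median log2 ratio over all genes was 0.13. The rule used this contrast, so the counts below describe the cells that it chose. Counts of list members are to be read against these shares of all genes. Both lists and members were chosen with earlier results of these data known. Against all other barcodes of that library, 1523 of 21126 genes were at least 4-fold higher (7.21%) and 1556 lower (7.37%).

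The 87 matrix genes of the lists took 5.74% of all UMIs in fibroblasts of primary pancreas 1 and 9.08% in those of primary pancreas 2, against 1.95% and 1.87% in mural cells, 1.06% in Schwann cells and 0.566% in endothelial cells of the first animal. These genes include DCN and LUM of the rule, without which the shares were 4.79% and 7.86% in fibroblasts and 1.94% and 1.85% in mural cells. Of 24 collagen genes compared, 12 were at least 4-fold higher than in mural cells and 3 at least 4-fold lower, with a median log2 ratio of 1.87. With TMM scaling 9 of the 12 stayed above 4-fold, and COL5A1, COL6A2 and COL6A3 fell to log2 ratios of 1.97, 1.95 and 1.94. COL1A1 and COL1A2, the chains of fibrillar collagen I, stood at 3946 and 5403 CPM against 358 and 380 CPM in mural cells. COL3A1 stood at 4539 against 570 CPM, and COL14A1, a collagen on the surface of fibrils, at 1590 against 120 CPM.

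The 3 collagens that were at least 4-fold lower were COL4A5, COL4A6 and COL13A1, of which the first pair are chains of the basement membrane. COL4A5 stood at 33.7 CPM in fibroblasts and 170 CPM in mural cells. The main basement membrane chains COL4A1 and COL4A2 were close, at 234 and 348 CPM against 307 and 394 CPM. Of 9 other basement membrane genes, 2 were at least 4-fold higher (NID1 and LAMB1) and 0 were lower. In primary pancreas 2 the ratios over mural cells were 26.8 for COL1A1 (95% interval 22 to 32.8), 23.8 for COL1A2 (20.1 to 28.3) and 16.6 for COL3A1 (14.4 to 19.2), all above the 11, 14.2 and 7.96 of primary pancreas 1, while COL4A5 was at 0.86 (0.42 to 1.59) and COL4A6 at 0.98 (0.45 to 1.95).

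Of 12 small leucine-rich proteoglycans compared, 7 were at least 4-fold higher than in mural cells and 0 lower (median log2 ratio 2.22). Beside DCN and LUM these were OMD, KERA, OGN, PRELP and FMOD, of which FMOD fell under 4-fold with TMM scaling and PRELP in the second animal (log2 ratios 1.94 and 1.04). OGN (osteoglycin) stood at 1035 against 53.7 CPM, and OMD (osteomodulin) at 319 against 5.69 CPM. KERA, next to LUM on the chromosome, had 50 UMIs in 11.4% of fibroblasts and 0 in mural cells, which makes it at least 23.4-fold higher by a floor of 3 counts over the class. BGN (biglycan) differed little, at 568 and 420 CPM, and in primary pancreas 2 it was lower in fibroblasts, at 121 against 656 CPM.

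Elastic fibre and microfibril genes were at least 4-fold higher for 13 of 18 genes and lower for 0 (median log2 ratio 2.35). FBN1 (fibrillin 1, the backbone of microfibrils) stood at 1148 against 160 CPM, MFAP5 at 568 against 10.1 CPM, and LTBP2, a fibrillin-like protein, at 211 against 18.1 CPM. ELN (elastin) stood at 921 against 195 CPM in primary pancreas 1 but at 268 against 324 CPM in primary pancreas 2, the latter from 20 UMIs (ratio 0.83, 0.49 to 1.33). Fibroblasts outside subcluster 5, described below, had 197 CPM.

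Adhesive matrix glycoproteins had the highest median of the matrix lists, 3.22 on the log2 scale, with 13 of 22 genes at least 4-fold higher and 0 lower. DPT (dermatopontin, a binding partner of decorin) stood at 160 against 0.742 CPM, TNXB (tenascin X) at 248 against 3.46 CPM and SMOC2 at 365 against 3.71 CPM. In the second animal DPT had 128 UMIs in 7 of 8 fibroblasts and 0 in mural cells, at least 222-fold higher. MGP, an inhibitor of calcification, was as high in mural cells as in fibroblasts of primary pancreas 1 (7440 and 7786 CPM). SPARCL1, a protein that counters adhesion, was lower in fibroblasts, at 933 against 2393 CPM.

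Of 16 collagen maturation genes 5 were at least 4-fold higher, among them LOX, which cross-links collagen and elastin (489 against 34.1 CPM), and PCOLCE, which enhances procollagen cleavage (539 against 44.3 CPM). Of 17 matrix proteases and inhibitors 4 were higher and 2 lower, against 6.80% and 5.35% of all genes compared. MMP2 (gelatinase A) stood at 317 against 17.1 CPM and SERPINF1 (pigment epithelium-derived factor) at 755 against 30.4 CPM, while the protease gene ADAMTS9 stood at 85.1 against 447 CPM. The strip plot by gene list shows these groups side by side.

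**Figure D2:**
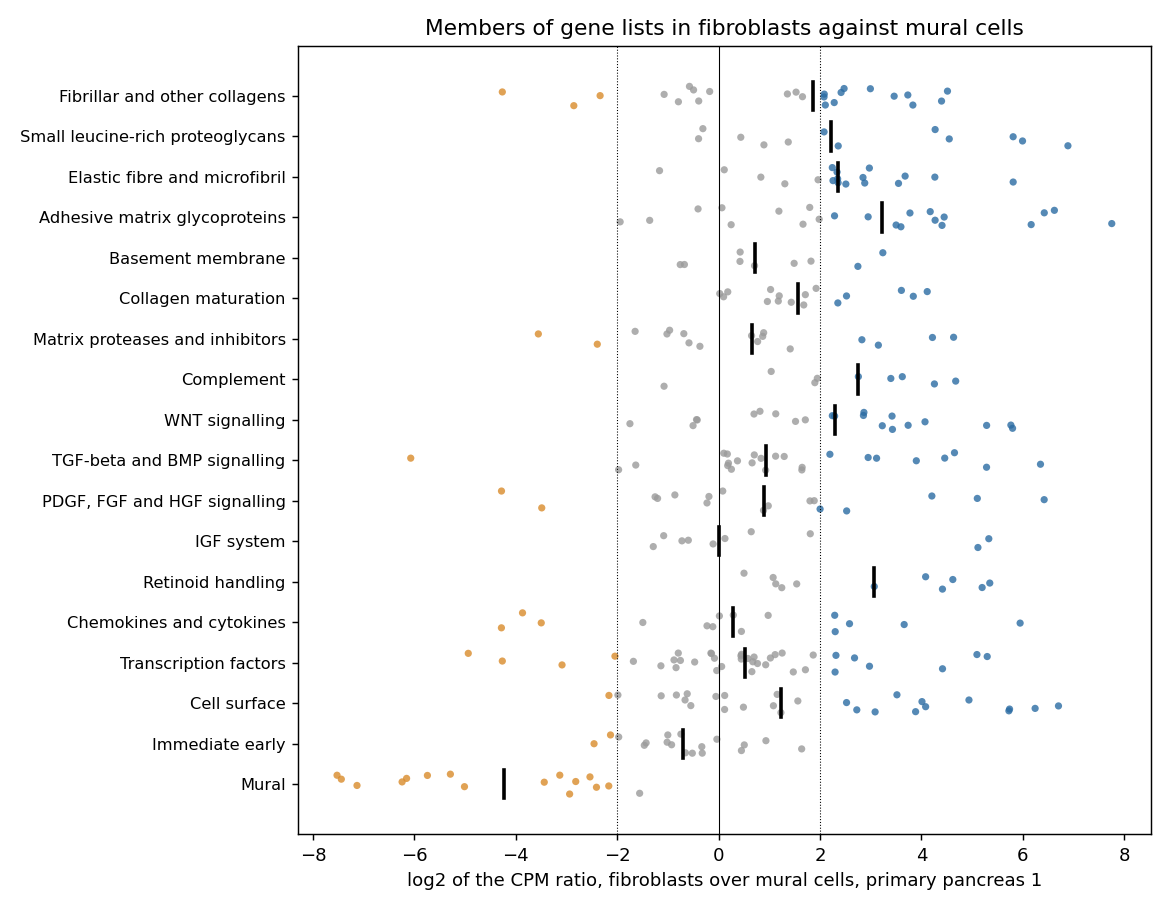
Each point is a gene of a list with at least 20 UMIs in fibroblasts and mural cells of primary pancreas 1 together, placed by the log2 ratio of its CPM in fibroblasts over mural cells, with a black bar at the median of the list and dotted lines at 4-fold. The adhesive glycoproteins have a median of 3.22 and the immediate early genes of -0.70, and the mural list, which holds the 5 mural genes of the rule, of -4.23.

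PDGFRA, the receptor for platelet-derived growth factors that is widely used to mark fibroblasts, stood at 297 CPM against 8.66 CPM in mural cells (ratio 34.3, 24.5 to 49.6), and 34 UMIs in all 8 cells of primary pancreas 2 gave a ratio of 25.3 (11 to 67.6). PDGFRB, the related receptor known from pericytes, was lower in fibroblasts, at 84.7 against 195 CPM. Of 17 genes of PDGF, FGF and HGF signalling, 5 were at least 4-fold higher (FGF10, PDGFRA, VEGFD, GFRA1, NTRK2) and 2 lower (PDGFC and ANGPT1, the pericyte ligand of the endothelial receptor TIE2). NTRK2 fell under 4-fold with TMM scaling. ANGPT1 stood at 62.1 against 697 CPM.

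Of the WNT signalling list 12 of 21 genes were at least 4-fold above mural cells and 0 lower, with a median log2 ratio of 2.29. RSPO3, an R-spondin that amplifies WNT signals at stem cells, had 250 UMIs in 64 fibroblasts of primary pancreas 1 (86.8 CPM) and 2.23 CPM in mural cells, a ratio of 39.0 (20.2 to 86.3). Its next highest class was INS-high cells with 9.07 CPM. After each cell was thinned to 2000 UMIs, 11% of fibroblasts held RSPO3, against 0.463% of mural cells and 0% of lymphocytes. In primary pancreas 2 there were 36 UMIs of RSPO3 in 7 of 8 fibroblasts (482 CPM) and 0 in mural cells, at least 62.5-fold higher.

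The ligands WNT2B, WNT5A and WNT5B stood at 34.0, 21.2 and 83.3 CPM in fibroblasts and at 4.70, 1.98 and 17.1 CPM in mural cells. The secreted WNT antagonists SFRP1, SFRP2 and SFRP4 were higher as well, at 234, 134 and 245 CPM against 25, 2.47 and 14.6 CPM. SFRP5 stood at 68.7 CPM in fibroblasts and at 225 CPM in Schwann cells. DKK2, another antagonist, was under the 4-fold limit (191 against 58.4 CPM), and FRZB was lower (24.7 against 82.9 CPM).

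Organoid niche factors were looked at as a list of 17 genes, of which 10 could be compared. The list is wider than the study's medium, to which WNT3A, R-spondin 1, noggin, FGF10, EGF and gastrin were added. FGF10, GREM1, RSPO3, WNT5A and WNT2B were at least 4-fold above mural cells and EREG and AREG, ligands of the EGF receptor, at least 4-fold below (median log2 ratio 2.15). Of these only FGF10 was in that medium. FGF10, a growth factor for pancreatic epithelium, had 61 UMIs in 21 fibroblasts, and GREM1, an antagonist of BMP like the noggin of the medium, had 58 UMIs in 32 fibroblasts and its highest level in subcluster 2 (85.5 CPM, described below). NOG itself had 1 UMI and WNT3A 0 UMIs in fibroblasts of primary pancreas 1. EREG and AREG had 2 UMIs each there, against 334 CPM of EREG in SLC4A4-high cells and 410 and 359 CPM in PPDO 1 and 2. RSPO1, DKK1 and EGF had 2, 1 and 2 UMIs, and RSPO2 and RSPO4 had 0.

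**Figure D3:**
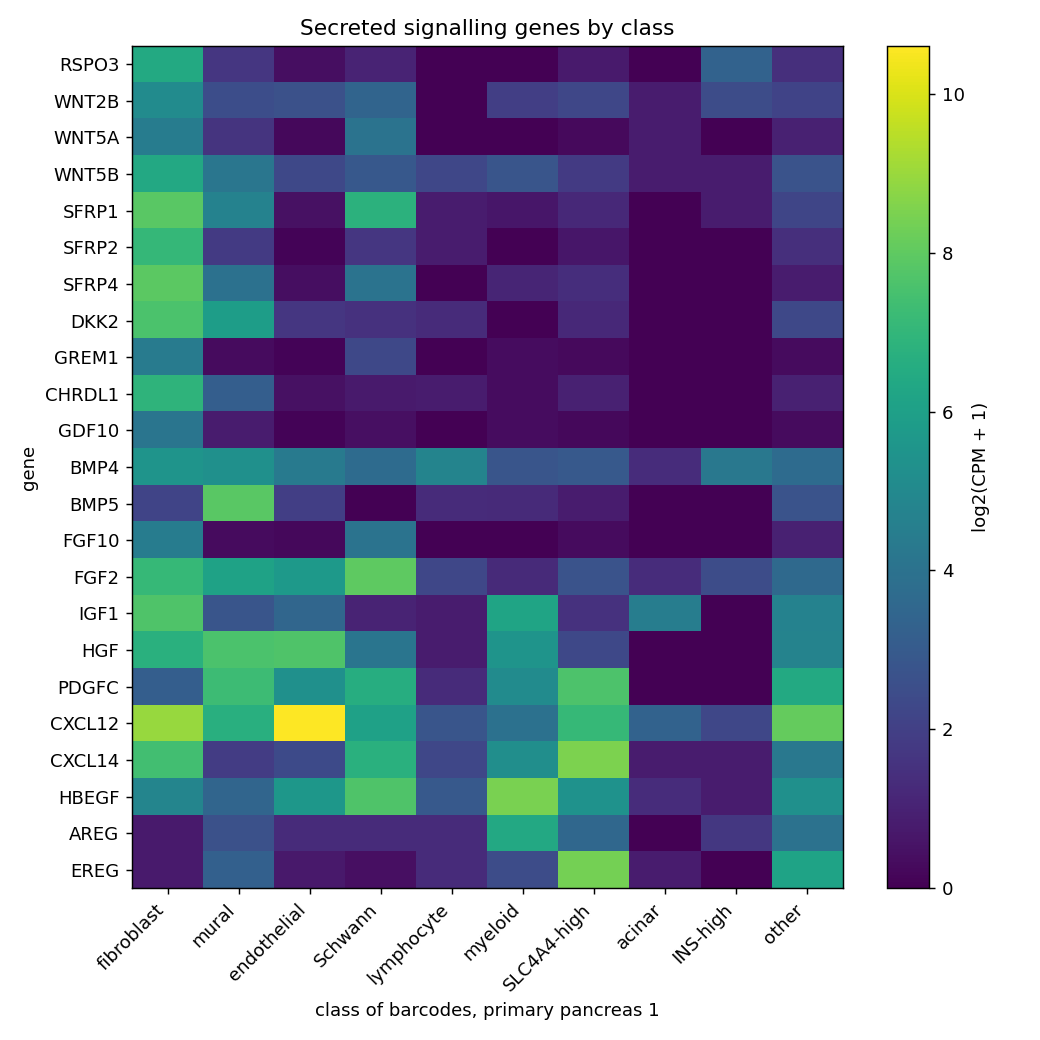
Colour gives log2(CPM + 1) of 23 secreted signalling genes (rows) in 10 classes of barcodes of primary pancreas 1 (columns). RSPO3, SFRP2, SFRP4 and CHRDL1 are brightest in fibroblasts, BMP5 in mural cells, CXCL12 in endothelial cells and EREG in SLC4A4-high cells.

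In TGF-beta and BMP signalling 8 of 25 genes were at least 4-fold higher and 1 was lower (median log2 ratio 0.93). The lower one was BMP5, at 3.47 CPM in fibroblasts and 234 CPM in mural cells. In the second animal it had 0 UMIs in fibroblasts and 185 CPM in mural cells, at least 4.61-fold lower. BMP7 stood at 38.5 against 0.989 CPM, the BMP antagonist CHRDL1 at 118 against 7.92 CPM, and TGFBI, a matrix protein that TGF-beta induces, at 317 against 12.6 CPM. BMP4 was alike in both classes of primary pancreas 1 (43.7 and 38.8 CPM), and in primary pancreas 2 it had 14 UMIs in 4 fibroblasts and a ratio of 18.2 (5.72 to 76.0).

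Of 10 genes of the IGF system 2 were at least 4-fold higher and 0 lower, against 6.80% and 5.35% of all genes compared. IGF1 (insulin-like growth factor 1) stood at 206 against 5.94 CPM, and at 469 against 15.4 CPM in the second animal. IGFBP6, which binds IGF2, stood at 1828 against 45.5 CPM. Of 15 chemokines and cytokines 5 were higher and 3 lower, where CCL5, 1 of the 5, turned below mural cells without the marked cells described above. CXCL12, which retains leukocytes and progenitors through CXCR4, stood at 500 CPM, above mural cells (102 CPM) and below endothelial cells (1557 CPM), but was 1.86-fold above mural cells in the second animal (1.06 to 3.15). CCL2, CCL19 and CXCL2 were lower than in mural cells, at 34.0, 43.7 and 42.0 CPM against 384, 638 and 818 CPM. In primary pancreas 2 CCL19 was again lower, at 40.2 against 1053 CPM, while CXCL2 had 2 UMIs in fibroblasts and was not 4-fold apart. CCL2 had 0 UMIs in fibroblasts there, with too few in mural cells for a 4-fold bound.

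Complement genes were at least 4-fold higher for 5 of 9 and lower for 0 (median log2 ratio 2.76). C4A stood at 126 CPM, while the next class, mural cells, had 4.95 CPM. C3 and CFD (factor D) stood at 83.3 and 1082 CPM against 7.92 and 56.6 CPM in mural cells, but both were higher in SLC4A4-high cells, at 344 and 2496 CPM. In retinoid handling 6 of 11 genes were higher and 0 lower (median log2 ratio 3.07), among them ALDH1A1 and ALDH1A3, which make retinoic acid (195 and 102 CPM against 9.15 and 12.1 CPM). ALDH1A3 was 3.37-fold higher in the second animal (1.43 to 7.62). ALDH1A1 was higher still in SLC4A4-high cells, at 283 CPM. LRAT, which stores retinol as esters in stellate cells, had 0 UMIs in fibroblasts of either animal.

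Genes of pancreatic stellate cells, the vitamin A-storing mesenchymal cells of the organ, were divided, with 3 of 11 at least 4-fold higher, 3 lower (RGS5, a gene of the rule, DES and FABP4) and a median log2 ratio of -0.66. DES (desmin) stood at 8.68 against 465 CPM. GFAP was found in 2.57% of fibroblasts at 19.1 CPM and stood at 178 CPM in Schwann cells. The list of activated fibroblasts had 4 of 12 genes higher and 2 lower, the latter ACTA2 and TAGLN of the rule. POSTN (periostin) was lower than in mural cells, at 21.2 against 81.4 CPM, and CTHRC1 stood at 37.5 CPM, nearly all from 1 subcluster described below. Of 7 proliferation genes 0 were at least 4-fold higher and 2 lower (TPX2 and CENPF), and TOP2A had 2 UMIs.

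Of 38 transcription factors 7 were at least 4-fold higher and 4 lower (median log2 ratio 0.51), against 6.80% and 5.35% of all genes compared. EBF2 stood at 1005 against 202 CPM (ratio 4.97, 4.6 to 5.38) in primary pancreas 1. In primary pancreas 2 it stood at 188 against 255 CPM from 14 UMIs (ratio 0.74, 0.39 to 1.29). Within primary pancreas 1, EBF2 was at 1476 CPM in subclusters 2, 4, 5 and 6, described below, and at 314 CPM in subclusters 1 and 3. All 8 cells of primary pancreas 2 were in subclusters 1 and 3. Its relative EBF1 was alike in fibroblasts and mural cells, at 1514 and 1602 CPM. OSR1 and FOXD1, factors of embryonic mesenchyme, stood at 80.2 and 25.3 CPM against 16.3 and 0.742 CPM, and TCF21 was lower, at 14.9 against 61.6 CPM, but not in the second animal (80.4 and 85.0 CPM).

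PTCH1, a receptor of hedgehog ligands, stood at 315 against 19.5 CPM, and GLI1, a transcription factor of the same pathway, at 26.4 against 1.24 CPM. There was no list for that pathway, and no count of its members was made. The ligands were looked up after these values were seen. DHH (desert hedgehog) had 318 UMIs in 147 of 306 Schwann cells (115 CPM) and 12 UMIs in 5 fibroblasts (4.17 CPM), while IHH and SHH had 1 and 2 UMIs in fibroblasts. In the 8 cells of primary pancreas 2 PTCH1 had 2 UMIs and GLI1 had 0.

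On the cell surface 12 of 27 genes were at least 4-fold higher and 1 lower (median log2 ratio 1.23). ITGBL1, an integrin-like secreted protein, stood at 592 against 5.69 CPM, and at 1246 against 5.15 CPM in the second animal. PDPN (podoplanin) stood at 187 against 2.47 CPM, LEPR (the leptin receptor) at 39.2 against 0.742 CPM and THY1 at 164 against 24.7 CPM. ITGA8 was lower, at 64.2 against 288 CPM. Immediate early genes, which dissociation is known to induce, were at least 4-fold higher for 0 of 18 and lower for 2 (median log2 ratio -0.70). Over all genes compared these shares were 6.80% and 5.35%. FOS stood at 2653 CPM in fibroblasts and 4443 CPM in mural cells of primary pancreas 1, and at 93.8 and 234 CPM in primary pancreas 2.

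Across all genes with a unique symbol, at least 50 CPM and a UMI in at least 25% of cells of the higher class, the 15 largest ratios over mural cells belonged to FCN2, DPT, COL28A1, ABCA6, GXYLT2, DCN, CLDN1, LVRN, VIT, ITGBL1, SMOC2, ZFHX4, THBS4, PDPN and TNXB. Among these DCN was in the rule. FCN2, a ficolin that recognises sugars and starts the lectin pathway of complement, had the largest, with 4285 UMIs in 26.5% of fibroblasts and a ratio of 463 (270 to 870). ABCA6, a lipid transporter, stood at 519 against 3.46 CPM. CLDN1 (claudin 1, a tight junction protein) stood at 376 against 3.22 CPM, and 12.4 CPM was its level in the next class.

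The 15 genes with the largest ratios the other way were ACTG2, RERGL, MAP3K7CL, ITIH4, MYH11, NDUFA4L2, DPP10, CNN1, FHL5, FAM162B, TINAGL1, GJA5, RRAD, CTNNA3 and ACTA2, of which MYH11, CNN1 and ACTA2 were in the rule. ACTG2, a smooth muscle actin, had 2 UMIs in fibroblasts and 281 CPM in mural cells. In the second animal ACTG2, MAP3K7CL, NDUFA4L2, FAM162B and RRAD had 0 UMIs in the 8 fibroblasts and 37 to 60 UMIs in mural cells, too few for a 4-fold bound. RERGL and ITIH4, which were not in the rule, were 334-fold and 269-fold lower.

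Measured against the highest of all other classes, the 15 leading genes were FCN2, DPT, DCN, THBS4, LUM, GFPT2, SFRP2, APOD, LVRN, PDGFRA, PLXDC1, CLDN1, SMOC2, C4A and CLMP. DCN, LUM and APOD were in the rule, and their place here follows from it. GFPT2, an enzyme of hexosamine synthesis, stood at 162 CPM, and mural cells came next with 2.72 CPM. THBS4 stood at 255 CPM against 2.97 CPM in mural cells (ratio 85.7, 48.8 to 167), and SVEP1 at 392 against 28.7 CPM (13.7, 11.3 to 16.7).

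The 280 fibroblasts fell into 6 subclusters, numbered by size, with 74, 52, 51, 45, 34 and 24 cells. Their leading genes came from the same counts by which the cells were clustered and are given as descriptions. The genes of the rule were not used for clustering. Subclusters 1 and 3 held 69 and 48 cells of primary pancreas 1 and 5 and 3 of primary pancreas 2, and the other 4 held cells of primary pancreas 1 alone.

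**Figure D4:**
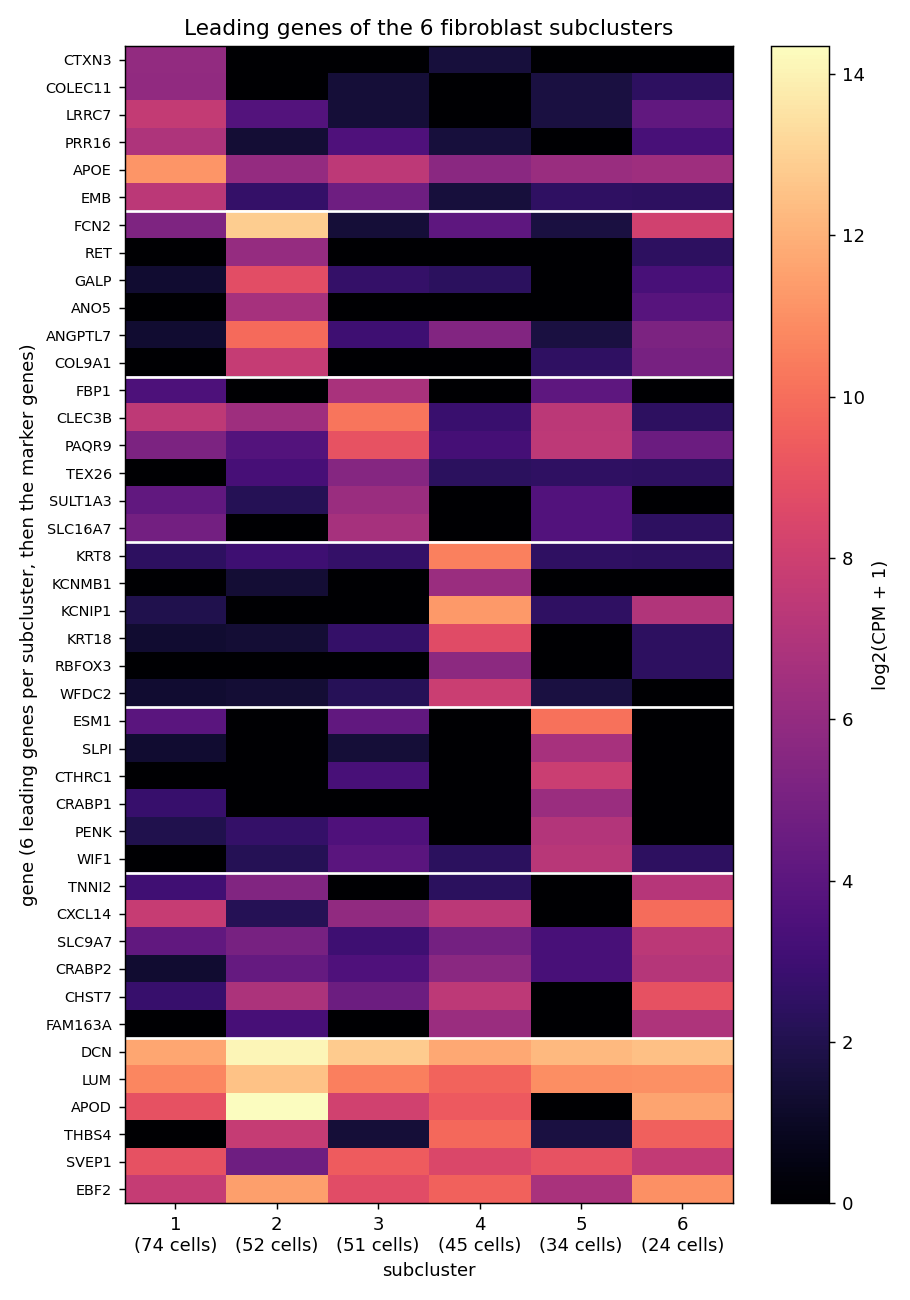
Colour gives log2(CPM + 1) in the 6 subclusters (columns) for the 6 leading genes of each and, in the lowest block, for the 6 marker genes (rows). DCN and LUM are bright in every column, APOD ranges from 0 CPM in subcluster 5 to 20871 CPM in subcluster 2, and THBS4 is bright in subclusters 2, 4 and 6.

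Subcluster 1 (74 cells, median 7366 UMIs) was led by CTXN3, COLEC11, LRRC7, PRR16, APOE and EMB. APOE, a lipid carrier, stood at 2347 CPM there and at 49.6 to 172 CPM in the others, and C7, a complement component, at 334 CPM. It held most of the RSPO3 (313 CPM) and FGF10 (83.5 CPM). It also held all 5 fibroblasts with at least 10 UMIs of the Schwann set, 3 of the 4 with the myeloid set and 1 each with the lymphocyte and endothelial sets, and APOE stood at 1779 CPM in Schwann cells. These counts do not cover the mural set. With fibroblasts marked by any of these sets or the mural set left out, 57 of the 74 cells remained. The part of the marked cells in the levels of APOE, LRRC7 and other genes was not tested.

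Subcluster 2 (52 cells) was led by FCN2, RET, GALP, ANO5, ANGPTL7 and COL9A1. FCN2 stood at 7311 CPM and was seen in every cell of it, against 1.79 to 270 CPM in the others. COL28A1, a collagen known from nerves, stood at 2085 CPM, and also at 312 CPM in Schwann cells. DCN and APOD had their highest levels here, at 17286 and 20871 CPM, and COL14A1 and MGP were low at 87.2 and 251 CPM. Of 16 genes compared of the nerve fibroblast list 7 were at least 2-fold above the other fibroblasts and seen in at least 10% of the cells (APOD, SOX9, OSR2, ETV1, PLXDC1, CCL11 and TENM2). APOD, counted among the 7, was a gene of the rule. Of 17 immediate early genes 12 passed the same limits, with FOS at 5702 CPM. Of all 11010 genes compared 6.58% did.

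Subcluster 3 (51 cells) had 7 of the 11 genes compared of the adventitial fibroblast list past these limits (PI16, CD34, CLEC3B, MFAP5, SEMA3C, SFRP2 and CD248), against 5.10% of all genes. That list describes fibroblasts of the outer sheath of vessels and ducts. PI16 and CD34 passed the limits in subcluster 5 as well. The list summed to 8445 CPM in subcluster 3 and to 7982 CPM in subcluster 4, where IGFBP6 alone stood at 5728 CPM and 2 genes of the list passed the limits. Subcluster 3 was led by FBP1, CLEC3B, PAQR9, TEX26, SULT1A3 and SLC16A7. CLEC3B (tetranectin) stood at 1208 CPM, EFEMP1 (fibulin 3) at 1156 CPM and PI16 at 1703 CPM. COL1A2 and FBN1 stood at 8969 and 2487 CPM.

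Subcluster 4 (45 cells) was led by KRT8, KCNMB1, KCNIP1, KRT18, RBFOX3 and WFDC2. KRT8, a keratin of simple epithelia, stood at 1537 CPM and was seen in 91.1% of its cells, against 4.39 to 6.98 CPM in the other subclusters. KRT18 and WFDC2, which epithelia also use, stood at 420 and 230 CPM, and at no more than 5.36 CPM in the other subclusters. The ductal list genes EPCAM, KRT7, CDH1 and PKHD1 stood at 2.07, 0, 4.14 and 4.14 CPM, where SLC4A4-high cells had 864, 543, 922 and 2397 CPM. KCNIP1, a potassium channel partner, was seen in all its cells at 2517 CPM, with 0.247 CPM in mural cells.

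The same 45 cells had CLDN1 at 1264 CPM, ITGB4 at 1047 CPM, TENM2 at 1808 CPM, NGFR at 391 CPM, THBS4 at 916 CPM and PTCH1 at 1059 CPM, and these with SLC22A3 made 7 of 16 genes of the nerve fibroblast list past the 2-fold limits, against 9.25% of all genes. Matrix genes were low, at 2.78% of UMIs, with COL3A1 at 563 CPM and LOX at 43.4 CPM. CLDN1, ITGB4 and NGFR are genes that cells of the perineurium, the sheath of nerve bundles, are known to use. The genes that led the subcluster were not on the nerve fibroblast list. Among them KRT8 and KRT18 are on the mesothelial list, which summed to 1959 CPM in this subcluster. Nearly all of that sum came from KRT8 and KRT18 themselves (1537 and 420 CPM). MSLN, UPK3B, LRRN4, ITLN1 and PRG4 of that list were not matched to a gene. Of the 16 mural list genes 5 passed the 2-fold limits as well, against 9.25% of all genes (NOTCH3, DES, MCAM, COX4I2 and MYLK). That list summed to 1103 CPM in subcluster 4, to 454 to 1040 CPM in the others and to 22471 CPM in mural cells. Subcluster 4 was given no name.

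Subcluster 5 (34 cells, median 11469 UMIs) was led by ESM1, SLPI, CTHRC1, CRABP1, PENK and WIF1. ELN stood at 5022 CPM and was seen in all its cells, against 1.74 to 749 CPM elsewhere, and LTBP2 at 1071 CPM. COL3A1 and MGP were at their highest, 12136 and 22996 CPM, and the matrix share was 10.1% of UMIs, the highest of the 6. APOD was at 0 UMIs in all 34 cells. CTHRC1, on the list of activated fibroblasts, stood at 238 CPM and was at 8.93 CPM or less elsewhere. PI16 was as high as in subcluster 3 (2016 CPM), but CLEC3B stood at 164 CPM.

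Subcluster 6 (24 cells) was led by TNNI2, CXCL14, SLC9A7, CRABP2, CHST7 and FAM163A. CXCL14 stood at 984 CPM, against 0 to 218 CPM in the others. It shared THBS4 (759 CPM), CLDN1 (1034 CPM) and TENM2 (1550 CPM) with subcluster 4, but KRT8 stood at 4.49 CPM and ITGB4 at 306 CPM. Of 17 immediate early genes 14 passed the 2-fold limits, against 8.66% of all genes, with FOS at 5810 CPM. At a lower clustering resolution subclusters 4 and 6 merged into 1 of 69 cells.

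After thinning of primary pancreas 1 cells to 2000 UMIs, 30 cells held RSPO3, 122 held PI16 and 2 held both. With all UMIs these were 64, 158 and 27 of 272 cells. In primary pancreas 2, 7 of 8 cells held RSPO3, 6 held PI16 and 5 held both with all UMIs, and 5, 4 and 2 after thinning. In the thinned cells of primary pancreas 1, FCN2 was in 64 cells, APOD in 124 and both in 61. THBS4 was in 59 cells, CLDN1 in 97 and both in 46. These pairs were chosen after their values were seen.

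In primary pancreas 1, 155 of 272 fibroblasts (57.0%, 50.9 to 62.9) were in subclusters 2, 4, 5 and 6, and in primary pancreas 2 it was 0 of 8, which allows a share of up to 37.5%. THBS4 stood at 428 CPM in the 155 cells, of which 93 had a UMI of it, and at 0.856 CPM in the 117 cells of subclusters 1 and 3, with 0 UMIs in primary pancreas 2. FCN2 stood at 2487 and 22.3 CPM and had 0 UMIs in the second animal, and CLDN1 and TENM2 had 1 UMI each there. DPT went the other way, at 10.5 CPM in the 155 cells, 379 CPM in the 117 and 1715 CPM in primary pancreas 2. RSPO3 stood at 8.18, 202 and 482 CPM in the same order. Among the 8 cells DPT ranged from 0 to 51 UMIs and RSPO3 from 0 to 12. PI16 was at 0 in 2 of the 8 cells and at 44 UMIs in the highest. All 25 UMIs of ALDH1A2, a retinoic acid enzyme, came from 1 cell.

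Against mural cells of their own animal, the 8 fibroblasts of primary pancreas 2 had 211 of 4600 genes at least 4-fold higher (4.59%) and 477 lower (10.4%), with a median log2 ratio of -0.20. Of 239 genes of the lists and rankings that were 4-fold apart in primary pancreas 1, 131 had under 20 UMIs in both classes of the second animal together and 108 had more. Without genes of the rule, whose sides the rule fixes, 231 genes were left, of which 100 had at least 20 UMIs. A gene that is rare in mural cells reaches 20 UMIs there through the fibroblasts alone, so how many of the 108 were again on the same side is no measure of agreement. Among the 15 leading genes over mural cells, 9 had under 20 UMIs (FCN2, COL28A1, GXYLT2, CLDN1, LVRN, VIT, SMOC2, THBS4 and PDPN). The genes of the 108 on the other side were EBF2, ELN and EMB, with log2 ratios of -0.44, -0.28 and 0.03. APOD was 3.1-fold higher (1.92 to 4.93), and SVEP1 88.5-fold (28.6 to 443).

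**Figure D5:**
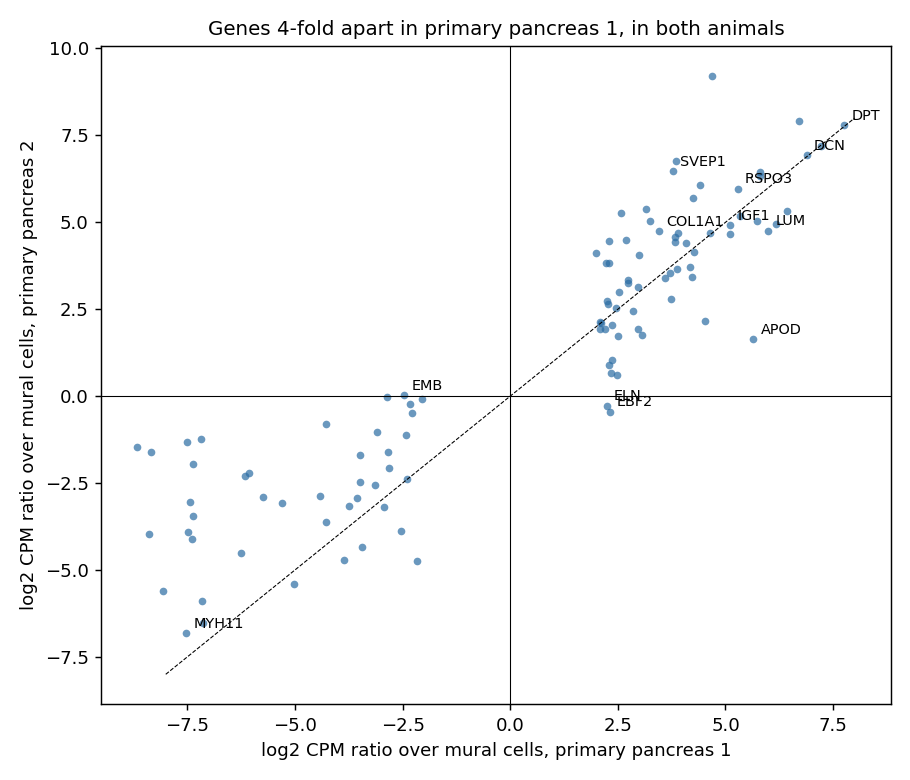
Each of the 108 points is a gene at least 4-fold apart in primary pancreas 1, placed by its log2 CPM ratio over mural cells in primary pancreas 1 (x) and primary pancreas 2 (y), with a dashed line of equality. EBF2 and ELN fall just below 0 on the y axis and EMB at 0.03, and only genes with at least 20 UMIs in primary pancreas 2 are shown, which leaves out 131. Genes of the rule are among the points, and without them 100 remain.

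No PPDO barcode met the rule, at 0 of 9447 and 0 of 7768 that passed the depth limits, which allows shares of up to 0.0318% and 0.0386% by a floor of 3 counts, and up to 0.0390% and 0.0475% by the exact interval. The highest PPDO barcodes had 5 and 7 UMIs of the rule genes. DCN stood at 0.0628 and 0.303 CPM in PPDO 1 and 2, LUM at 0.0120 and 0.0104 CPM and APOD at 0.0509 and 0.0696 CPM. RSPO3 was at 0.0658 and 0.108 CPM. The 87 matrix genes took 0.101% and 0.0957% of PPDO UMIs, against 5.74% in primary fibroblasts.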

How the data were processed

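Single-cell RNA sequencing of pig PPDO and primary pancreas was analysed, with groups and replicate numbers from the sample titles. For each barcode the authors deposited UMI counts, not normalised, made with Cell Ranger and an in-house pig annotation (Sscrofa11.1 in the submitters' processing notes). Names of features and barcodes came in further tables, whose unit is other than a measurement. The study corrected free RNA after this step, and the counts here are uncorrected. The libraries held 9853, 8071, 6999 and 7657 barcodes with 366263520, 316018482, 87043513 and 138928395 UMIs (PPDO 1 and 2, primary pancreas 1 and 2), and any pair shared 10 to 23 barcode sequences.

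The 56060 features, of which 25770 extend 3' ends, were summed to 30282 genes. Extensions gave 0.406% of DCN and 1.14% of LUM UMIs in fibroblasts but 33.7% of those of WNT2B and 67.1% of those of IGF1. Of the genes, 16699 had a symbol in the file, 722 took one from a name table and 12861 had none. Symbols shared by several genes (1331) were not used. Of 558 list genes 510 were matched, and some of them are not reported here by name.

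Counts were summed per class, because cells are not replicates. CPM ratios carry exact conditional intervals and CPM, shares and floors (3 counts) exact counting intervals at 95%. Genes with at least 20 UMIs in both classes together were compared, with 4-fold as the limit. No test was run, since the rule had used the contrast with mural cells and each primary library was 1 animal. Subclusters were made with Scanpy 1.11.5 from both primary libraries (10000 UMIs per cell, natural log with a pseudocount of 1, 1000 variable genes, 15 components, 15 neighbours, Leiden at resolution 0.5, leidenalg 0.10.2). The rule and mural genes, SLC4A4 and INS were left out before the variable genes were chosen. Doublets were left in, and Scrublet at the study's thresholds of 0.25 and 0.15 was an alternative. The ratio script was tested on simulated data.

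Named genes were the rule and marker genes, list members, the 15 largest and smallest ratios over mural cells and the 15 largest over every class of at least 50 cells (at least 50 CPM and 25% of cells), and 10 leading genes per subcluster. Members and lists were chosen with earlier results of these data known. Alternatives were lower and higher limits on UMIs, rule genes, mural margin, features and low counts, the study's cell limits, TMM (edgeR 4.0.16) and median-of-ratios scaling, INS and acinar genes left out, thinning, either library alone and other cluster settings.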

Additional observations from a re-analysis of the deposited data

How the results depend on the processing

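The number of fibroblasts was 244 to 289 in primary pancreas 1 and 7 to 10 in primary pancreas 2 over all alternatives. PPDO kept 0 except at 5 UMIs of the rule genes, where 2 barcodes passed. Stricter settings could only return 0 for PPDO. The study's cell limits were set for PPDO as under 8% mitochondrial UMIs, where the study's own limit was lower. The 909 genes higher than in mural cells became 1657 without a filter on low counts, 480 at a minimum of 100 UMIs and 211 without primary pancreas replicate 1. The 714 lower genes became 373 at 100 UMIs and 477 without replicate 1, where the 8 cells leave fewer genes to compare. The 1523 genes higher than in all other cells became 2519 without a filter, 929 at 100 UMIs and 2414 without replicate 1. TMM and median-of-ratios scaling moved the median log2 ratio over mural cells by -0.13 and -0.14, and gave 812 higher genes each and 776 and 777 lower. With TMM 233 of the 239 named genes kept the 4-fold limit, and COL5A1, COL6A2, COL6A3, FMOD, NTRK2 and PTGDS did not. Genes higher made 56.0% of the 4-fold genes, 51.1% with TMM, 48.9% (817 higher, 854 lower) with fibroblasts marked by 10 UMIs of another set left out, and 30.7% in primary pancreas 2 alone. Among the 4-fold genes, those that changed sides were EBF2, ELN and EMB without primary pancreas replicate 1 (log2 ratios -0.44, -0.28 and 0.0309). When fibroblasts with 10 UMIs of another marker set were left out, 3 of 235 did, among them CCL5 and CDH19 (-2.79 and -2.53). That alternative was chosen after seeing the data. It left out fibroblasts but no mural cells, by sets that hold CDH19 and the mural genes. The change of CDH19 and part of the shift to 817 and 854 genes follow from this.

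The 6 subclusters became 5 at resolution 0.3 and 7 at resolution 0.8, and stayed 6 under the other settings. Subclusters 2 to 6 each kept at least 97.1% of their cells together under every setting. Subcluster 1 split at resolution 0.8, with the study's limits, with 2000 variable genes and with the marked cells left out, where 64.9% to 75.4% of its cells stayed together. In the last 3 of these settings part of subcluster 1 joined subcluster 3, which then made 68.0%, 71.4% and 77.8% of a cluster of 75, 70 and 63 cells. No paired analysis was possible because the replicate numbers of PPDO and primary pancreas name different cultures and animals. A fit of fibroblasts against mural cells by animal was not run, since the rule had used that contrast. With 8 cells in primary pancreas 2, 131 of the 239 genes named as 4-fold apart had under 20 UMIs there.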
